A study of Homo sapiens with 10 samples.

Results

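The mitochondrial ribosomal proteins (MRPs) are the proteins that, with mitochondrial ribosomal RNA, build the ribosome inside mitochondria. They were taken as the rows of the count table whose symbol was MRPL or MRPS followed by digits and at most 1 capital letter, with a mean of at least 10 counts over the 10 samples. Of 57353 symbols in the table, 78 matched the pattern and 76 were kept, 48 named for the large subunit (MRPL) and 28 for the small subunit (MRPS). MRPS24 and MRPL53 fell under the minimum, with means of 7.8 and 0.1 counts. Of their exon bases, 23.2% and 99.4% overlap other genes, so these low counts are uncertain. The lowest members that were kept were MRPL38, MRPL46 and MRPS6, with means of 61.5, 145.5 and 205.9 counts. All 76 passed the filter on low counts and were among the 17230 genes tested.

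RNA was measured by RNA-seq of poly(A) mRNA in 4 kinds of LNCaP-C4-2 cells, a castration-resistant line derived from the LNCaP prostate cancer line. Knockdown cells (KD, n = 3) carried an shRNA against CPT1A, which makes acyl-carnitines at the outer mitochondrial membrane and so lets long-chain fatty acids enter the organelle, and their controls (NT, n = 2) carried a non-targeting shRNA. Over-expressing cells (OE, n = 3) carried CPT1A cDNA in a lentivirus and their controls (EV, n = 2) the empty virus. KD and NT cells were selected with 1 ug/ml puromycin and OE and EV cells with 5 ug/ml blasticidin, so that the drug and the vector differed between the arms. The paper described each kind of cell as 1 line, with 1 shRNA sequence against CPT1A. No source said whether replicates were separate transductions or cultures, so that the p-values measure the spread between these samples, which may be technical. In such bulk samples, fewer cells of a type and less RNA per cell cannot be told apart.

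CPT1A itself was at 265 and 262 CPM (read counts scaled to a common library size, with TMM factors) in NT and 81.2, 86.4 and 86.2 in KD. It was at 326 and 318 CPM in EV and 869.9, 914 and 861 in OE, so that the targeted transcript moved as labelled in both arms. Library totals were 23555205 to 28615770 counts, at which 3 counts correspond to 0.0995 to 0.136 CPM. Of the luminal prostate markers, KLK3, which encodes prostate-specific antigen, was at 5731 to 5946 CPM in OE against 3336 to 3487 in EV, and at 4234 to 4649 CPM in KD against 2355 to 2576 in NT. The luminal keratins KRT8 and KRT18 were at 322 CPM or more in every sample. Some luminal markers fell in at least 1 arm. EPCAM had log2 fold changes of -0.58 in the OE and -0.28 in the KD arm, FOLH1 of -0.14 and -0.55, and TMPRSS2 of -0.16 and 0.43. Of 12 markers of basal, immune, endothelial and stromal cells, 7 stayed under 1 CPM in every sample and 3 of these were at 0 throughout, with summed levels of 22.1 to 24.7 CPM in OE against 17.0 to 18.1 in EV, and of 26.2 to 28.8 CPM in KD against 18.8 to 19.3 in NT. The part of these markers in the MRP levels below was not tested. Some libraries stood apart from their replicates. The chi-square per degree of freedom of their counts over genes, which is 1 for counting noise alone, was 6.80 and 7.0 for KD 2 against KD 1 and KD 3, which were at 2.30 to each other. For OE 2 it was 3.88 and 4.47 against OE 1 and OE 3, which were at 2.17. The pairs of NT and EV were at 2.50 and 2.04. Without KD 2, 33 members rose and 10 fell in KD versus NT, beside 31 and 10 with it, and without OE 2, 36 rose and 12 fell in OE versus EV, beside 35 and 14.

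The mitochondrial genome encodes core subunits of the respiratory chain and the ATP synthase, and the mitoribosome is the only ribosome that translates them. Its 2 ribosomal RNAs come from the mitochondrial genome, but every MRP is encoded in the nucleus, made in the cytosol and imported. The small subunit holds the mRNA and the decoding centre, and the large subunit joins the amino acids and releases the chain at the inner membrane. Some MRPs have a counterpart in bacterial ribosomes, and others were added during mitochondrial evolution. The 76 genes were spread over 21 chromosomes, with at most 8 on any of them.

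Promoter windows of 250 bases before to 50 after the first listed RefSeq start (GRCh38.p14) were at hand for 67 of the 76 members. The letters CCGGAAG, the core that ETS factors such as GABPA recognise, were present on either strand in 28 of these 67 windows (41.8%), in 18.6% of the windows of tested genes and in 10.7% of all windows of the same length. The letters AAGATGGC, a YY1 core, were in 19 of 67 (28.4%), against 5.24% of tested genes and 3.03% of all windows. For an NRF1 core, the letters GCGCA and GCGC with any 1 base between them, the share was 11.9% against 11.5% of tested genes. The MYC E-box CACGTG was in 8.96% against 10.3%, and the ATF4 element TGATGNAA in 1.49% against 1.68%. None of these letter strings contains another. ETS matches lay at a median of 22 bases before the start (37 matches), and YY1 matches at a median of 9 bases after it (20 matches).

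The stretches below are shown because they belong to members described in the results and hold a match outside any annotated exon. Each runs 5′ to 3′ on the strand of the gene and ends at or before the RefSeq start, with GRCh38 coordinates of the stretch and with the match in capitals. The first group holds members that rose in at least 1 arm, including MRPL40, which fell in the other.
MRPS18A (chr6:43687792-43687862, minus strand): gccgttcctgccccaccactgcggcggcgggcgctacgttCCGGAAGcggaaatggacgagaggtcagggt
MRPL54 (chr19:3762621-3762681, plus strand): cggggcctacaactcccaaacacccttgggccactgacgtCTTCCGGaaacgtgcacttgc
MRPL52 (chr14:22829821-22829870, plus strand): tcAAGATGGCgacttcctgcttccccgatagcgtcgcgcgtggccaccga
MRPL40 (chr22:19432494-19432544, plus strand): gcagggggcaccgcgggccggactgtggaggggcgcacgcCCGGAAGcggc
The second group holds members that fell in at least 1 arm, of which MRPL45 has an NRF1 core and the others an ETS core.
MRPL47 (chr3:179604650-179604689, minus strand): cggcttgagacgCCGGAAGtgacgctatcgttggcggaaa
MRPS22 (chr3:139343875-139343955, plus strand): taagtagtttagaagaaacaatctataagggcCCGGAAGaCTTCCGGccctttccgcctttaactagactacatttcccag
MRPL48 (chr11:73787771-73787857, plus strand): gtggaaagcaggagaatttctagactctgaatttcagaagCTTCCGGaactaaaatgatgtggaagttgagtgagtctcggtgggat
MRPS31 (chr13:40771191-40771262, minus strand): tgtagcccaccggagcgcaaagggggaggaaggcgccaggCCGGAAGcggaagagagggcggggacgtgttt
MRPS21 (chr1:150293810-150293860, plus strand): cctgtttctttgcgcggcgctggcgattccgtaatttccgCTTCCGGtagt
MRPL45 (chr17:38296939-38297022, plus strand): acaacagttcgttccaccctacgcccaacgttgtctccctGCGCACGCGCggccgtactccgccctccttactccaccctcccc
The capitals are the ETS core, read as CCGGAAG or as its reverse complement CTTCCGG, in all but MRPL52, which shows the YY1 core, and MRPL45. The ETS core was present in members that rose and in members that fell. Over all windows, the 28 members with an ETS core had median log2 fold changes of 0.06 in the OE arm and 0.12 in the KD arm, beside 0.16 and 0.19 for the 39 without it. For the YY1 core the medians were 0.06 and 0.13 with (19 members) and 0.20 and 0.18 without (48 members). A match is a description of the letters only.

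**Figure D1:**
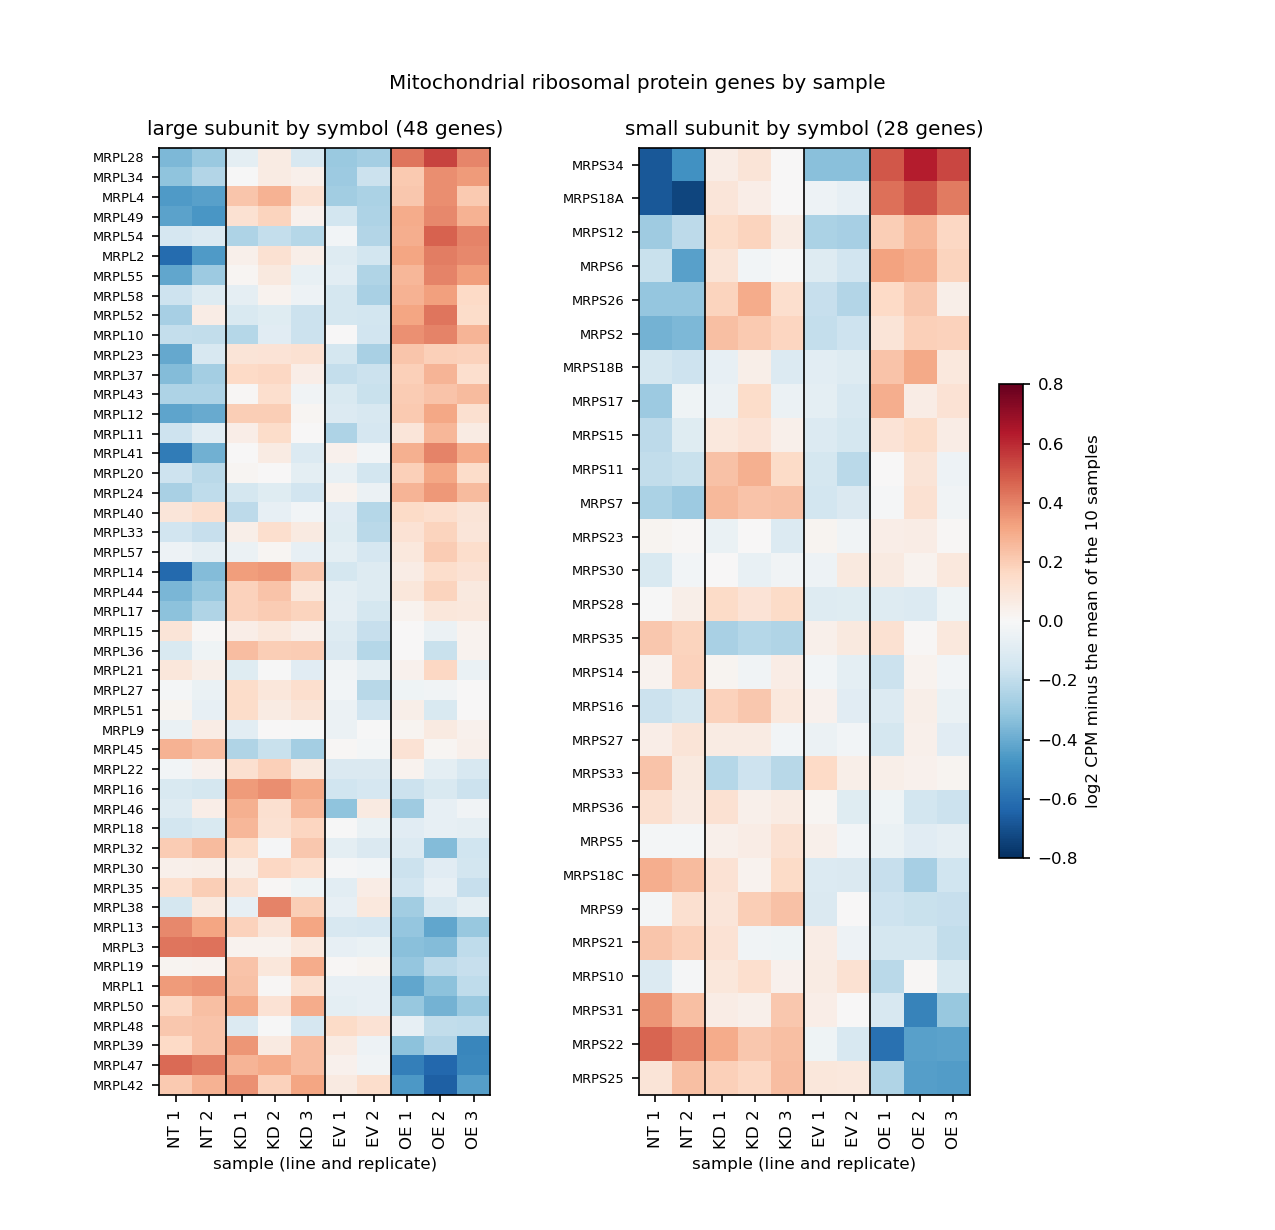
Heat map of log2 CPM minus the gene's mean over the 10 samples (colour scale from -0.8 to 0.8) for the 48 large-subunit and 28 small-subunit genes by symbol, rows ordered by the fold change of OE versus EV and columns by line and replicate. Members at the top, such as MRPL28 and MRPS34, are high in the 3 OE samples and low in NT, those at the bottom, such as MRPL42 and MRPS25, are low in OE, and replicates of a line look alike.

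Over-expression of CPT1A was first compared with its empty-virus control. In OE versus EV, 35 of 76 members rose and 14 fell at an adjusted p under 0.05 (edgeR's quasi-likelihood test with Benjamini-Hochberg adjustment over all 17230 genes), where 52.0% of all tested genes were called, 25.6% higher and 26.4% lower. The share of members that rose was thus 46.1% and the share that fell 18.4%. Of the 48 large-subunit members 25 rose and 9 fell, and of the 28 small-subunit members 10 rose and 5 fell. The median log2 fold change was 0.10 over the members and -0.02 over all tested genes, with 0.16 in the large and 0.02 in the small subunit. With library size alone in place of TMM the medians were 0.00 over the members and -0.12 over all genes and the counts 29 higher and 21 lower, and with an offset for GC content the counts were 42 and 6. Without EV replicate 1, 8 members fell instead of 14. At a stricter limit of 0.0001, 19 rose and 4 fell, where 21.9% of all genes were called, 11.6% higher and 10.3% lower.

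MRPS34, a mitochondria-specific protein of the small subunit in which mutations cause Leigh syndrome, rose most among the members (chr16:1771890-1773150 in GENCODE v44 on GRCh38). Its level was 86.1 and 86.2 CPM in EV and 154, 168 and 157 in OE (log2 fold change 0.89, SE 0.057, adjusted p = 1.34e-11), and the groups did not overlap. MRPL28, the counterpart of a bacterial large-subunit protein on the same chromosome (chr16:366969-371289), was at 65.9 and 66.9 CPM in EV and 109, 117 and 106 in OE (log2 fold change 0.74, SE 0.060, adjusted p = 6.54e-10). All 3 OE samples stood above both EV samples for each of these genes. Groups that did not overlap were a condition for naming the highest and lowest members of each arm. MRPL34, also of bacterial descent, was at 51.1 and 55.4 CPM in EV and 72.2, 80.9 and 79.1 in OE (log2 fold change 0.54, SE 0.060, adjusted p = 7.94e-08). MRPL4, which reaches into the wall of the exit tunnel, was at 101 and 103 in EV and 143, 159 and 142 in OE (log2 fold change 0.53, SE 0.056, adjusted p = 3.82e-08). MRPL49 and MRPL54, both without a bacterial counterpart, rose by 0.51 and 0.51 on the log2 scale. MRPL54 was at 30.1 and 26 CPM in EV and 37.4, 42.3 and 40.3 in OE. MRPS18A rose by 0.51 and MRPL2, a protein of the peptidyl transferase region, by 0.50. The standard errors of these 8 were 0.053 to 0.072, from a fit over all 10 samples. As these members were chosen among those called, a difference above its standard error follows from the choice. In the fit with a GC offset the values of MRPL4, MRPL54 and MRPS18A were 0.28, 0.30 and 0.33.

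The members that fell most in OE were again of both subunits. MRPL42, a mitochondria-specific large-subunit protein (chr12:93467514-93516214), was at 82.5 and 86.4 CPM in EV and 57, 49.8 and 57.9 in OE (log2 fold change -0.62, SE 0.064, adjusted p = 2.42e-08). MRPL47, the counterpart of a bacterial protein near the tunnel exit, was at 38.6 and 37 in EV and 25.9, 24.4 and 26.4 in OE (log2 fold change -0.57, SE 0.062, adjusted p = 6.83e-08). For both genes every OE sample lay below every EV sample, as the rule for naming required. MRPS25 and MRPS22, mitochondria-specific proteins of the small subunit in which mutations cause mitochondrial disease, fell by 0.46 (adjusted p = 1.21e-06) and 0.41 (adjusted p = 1.20e-05) on the log2 scale. MRPS25 was at 78.9 and 78.7 CPM in EV and 62.9, 54.7 and 54.3 in OE. MRPS22 was at 44.2 and 41.3 CPM in EV and 29.9, 33.5 and 33.6 in OE, and neither gene's groups overlapped. MRPL39, MRPS31, MRPL48 and MRPL50 fell by 0.38, 0.33, 0.29 and 0.25. Without EV replicate 1, MRPL39 and MRPS31 did not pass (adjusted p = 0.0514 and 0.0838), nor did MRPS31 without OE replicate 2 (adjusted p = 0.0586). With the GC offset MRPL42 was at -0.28, MRPL47 at -0.21 and MRPS22 at -0.23, MRPL39 and MRPS31 were no longer called (-0.12 and -0.06), and MRPL50 turned to 0.17.

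**Figure D2:**
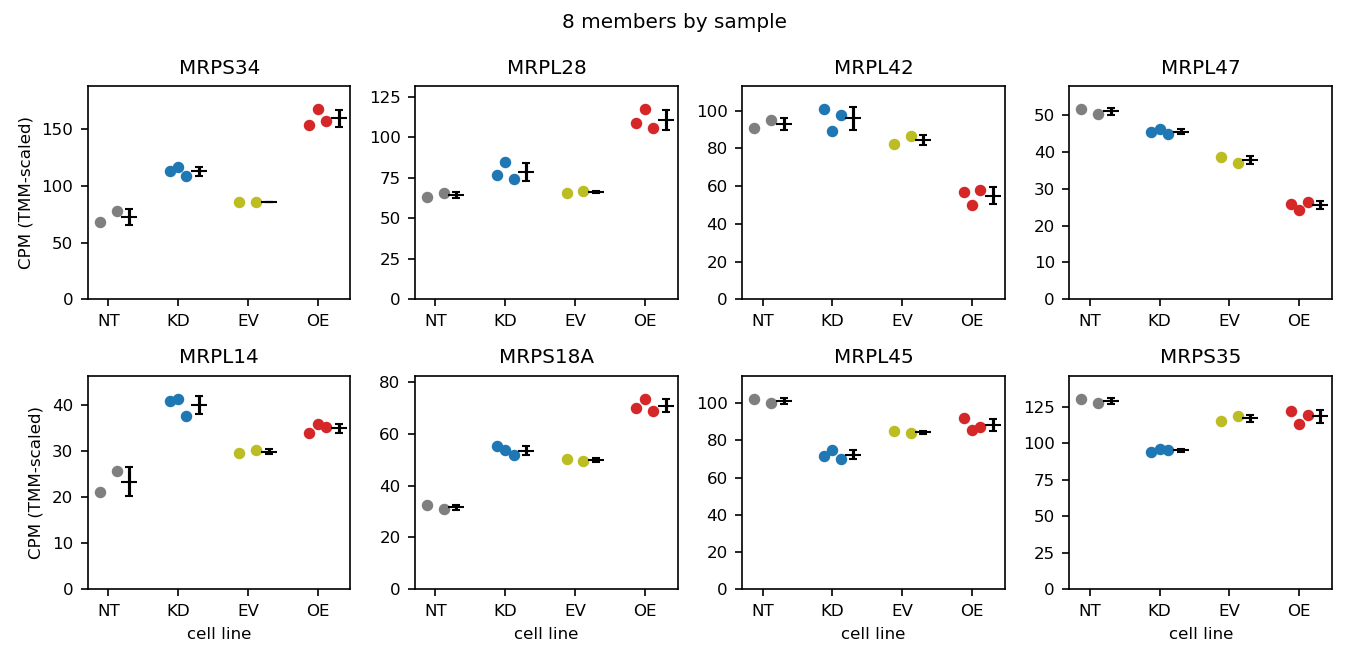
CPM (TMM-scaled, linear axis from 0) of 8 members in the 4 lines, 1 point per sample, with the mean and SD of each line in black. MRPS34 and MRPL28 are highest in OE, MRPL42 and MRPL47 lowest in OE, MRPL14 highest in KD, MRPS18A lowest in NT, and MRPL45 and MRPS35 lowest in KD.

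The knockdown was compared with its own non-targeting control, which shares no sample with the OE arm. In KD versus NT, 31 members rose and 10 fell (edgeR's quasi-likelihood test, adjusted p under 0.05), where 57.5% of all tested genes were called, 29.1% higher and 28.4% lower. The large subunit had 21 members that rose and 6 that fell, and the small subunit 10 and 4. The median log2 fold change was 0.12 over the members and -0.02 over all genes, with 0.14 in the large and 0.12 in the small subunit. At a limit of 0.0001, 20 rose and 4 fell, where 29.1% of all genes were called, 16.4% higher and 12.8% lower. Without NT replicate 1, 6 members fell instead of 10. More MRPs rose than fell in both the OE and the KD cells.

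MRPL14, the counterpart of a bacterial protein at the interface of the subunits and the docking site of the assembly factor MALSU1, rose most (chr6:44113451-44127452). It was at 21.1 and 25.5 CPM in NT and 40.9, 41.3 and 37.6 in KD (log2 fold change 0.78, SE 0.076, adjusted p = 4.23e-09). MRPS18A, in the same region of the chromosome (chr6:43671202-43687791), was at 32.3 and 31 CPM in NT and 55.1, 53.7 and 51.6 in KD (log2 fold change 0.76, SE 0.059, adjusted p = 1.00e-10). Neither gene's groups overlapped, as the rule for naming required. MRPL2, also in that region (chr6:43054029-43059438), rose by 0.60 on the log2 scale, and the median log2 fold change of other tested genes that start within 1 Mb was 0.29 around MRPL14, 0.39 around MRPS18A and 0.34 around MRPL2. MRPL4 was at 89.4 and 90.7 CPM in NT and 143, 149 and 133.3 in KD (log2 fold change 0.65, SE 0.057, adjusted p = 6.03e-10). MRPS34 was at 67.9 and 77.6 in NT and 113, 117 and 109 in KD (log2 fold change 0.64, SE 0.058, adjusted p = 1.51e-09). MRPS2, of bacterial descent, and MRPL49 rose by 0.58 and 0.56. MRPL12, which forms the stalk that recruits translation factors and also binds the mitochondrial RNA polymerase, was at 10.7 and 10.8 CPM in NT and 16.4, 16.4 and 14.4 in KD (log2 fold change 0.55, SE 0.092, adjusted p = 1.82e-05). Reads of MRPL12 are uncertain because 69.5% of its exon bases overlap other genes, with the largest overlap by a read-through gene on the same strand. Every member named in this paragraph was also called higher in EV versus NT, a comparison of the controls that uses the same NT samples. The part of that control difference in the KD values was not tested.

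MRPL45 fell most in KD. It lies at the tunnel exit and anchors the mitoribosome to the inner membrane (chr17:38297023-38323217), and was at 102 and 100.3 CPM in NT and 71.7, 75 and 70.1 in KD (log2 fold change -0.49, SE 0.050, adjusted p = 1.11e-08). MRPS35, a mitochondria-specific small-subunit protein (chr12:27710822-27756295), was at 131 and 127 in NT and 94, 95.9 and 95.2 in KD (log2 fold change -0.44, SE 0.048, adjusted p = 2.60e-08). All 3 KD samples lay below both NT samples for each, again by the rule for naming. MRPL3, an ancient protein of the large subunit, was at 268 and 268 CPM in NT and 203, 203 and 211 in KD (log2 fold change -0.38, SE 0.048, adjusted p = 2.29e-07). MRPS33 fell by 0.36, MRPL48 by 0.30, MRPL1, the protein of the stalk at the tRNA exit, by 0.22, MRPL40 by 0.21 and MRPS21 by 0.19. The call of MRPL1 was not kept without NT replicate 1, NT replicate 2 or KD replicate 2 (adjusted p = 0.0784, 0.106 and 0.0679), with library size only (0.0650) or with DESeq2 (0.0563), nor that of MRPL40 without NT replicate 2 (adjusted p = 0.0611) or that of MRPS21 without NT replicate 1 (adjusted p = 0.0682). With the GC offset MRPS35 was at -0.29 and MRPL1 turned to 0.03. In EV versus NT, MRPL45, MRPS35, MRPL3, MRPL1, MRPL40 and MRPS21 were also called lower, and MRPS33 and MRPL48 were not called.

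Set side by side, 34 members were called in both arms (44.7%, against 34.7% of all tested genes), and 20 in neither. Of the 34, 26 rose in both arms (34.2% of members, against 13.7% of all genes) and 6 fell in both (7.89%, against 12.7%). Those 26 were 17 large-subunit and 9 small-subunit members, among them MRPS34, MRPL4, MRPL2, MRPL49, MRPS18A, MRPS2, MRPL12, MRPL28, MRPL34 and MRPL41. With the GC offset MRPL12 was at 0.073 in OE versus EV and no longer called (adjusted p = 0.491). The 6 that fell in both were MRPL1, MRPL3, MRPL47, MRPL48, MRPS21 and MRPS22. MRPL1 is among them by a call that several settings removed, as given above. The remaining 2 members moved in opposite directions (2.63%, against 8.36% of all genes). MRPL40, a mitochondria-specific protein encoded in the region deleted in DiGeorge syndrome, was at 45.4 and 41.4 CPM in EV and 53.8, 53.3 and 51.9 in OE, but at 51.7 and 53.2 in NT and 41.9, 46.2 and 47.7 in KD. MRPL19, named here after its values were seen, was at 48.2 and 48.6 CPM in EV and 38.7, 41.4 and 42.2 in OE, and at 48.6 and 48.8 in NT and 56.2, 51 and 58.8 in KD. Across the 76 members the log2 fold changes of both arms had a Pearson's r of 0.58 and a Spearman's rho of 0.60, against 0.24 and 0.32 across all 17230 tested genes. These points are genes of the same libraries and share their transcripts' base composition between arms, so they are not independent replicates.

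**Figure D3:**
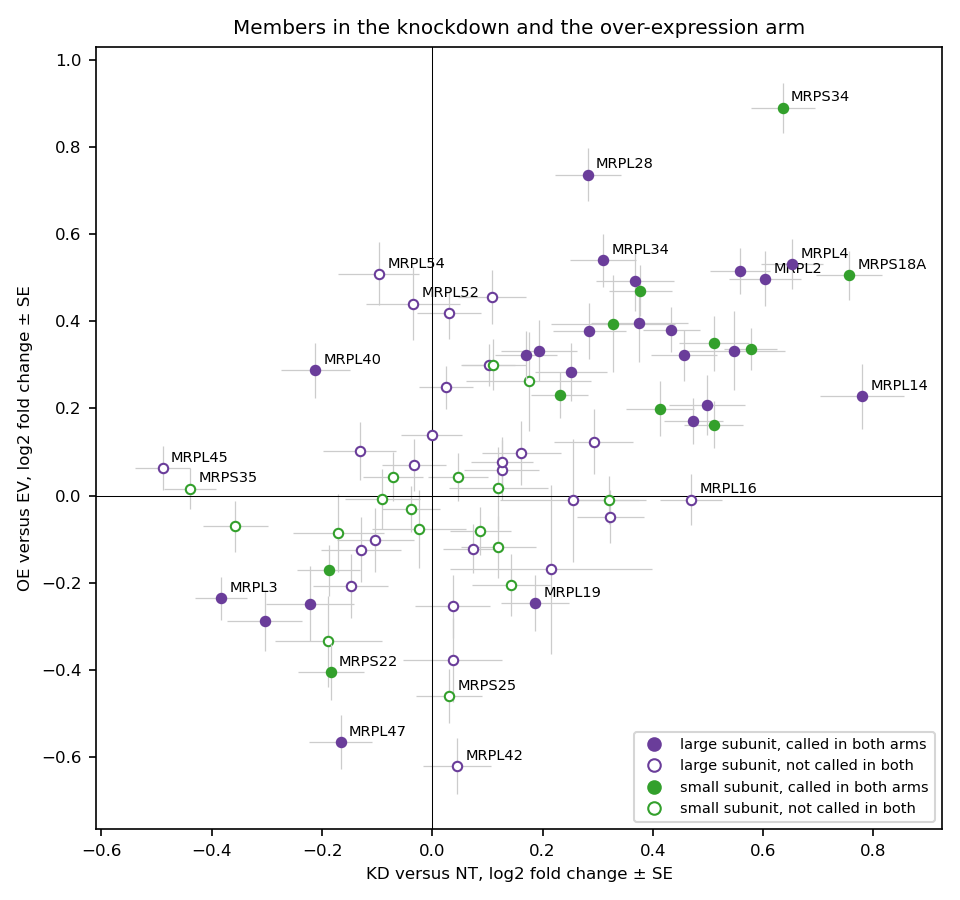
Log2 fold change with its SE for each member in KD versus NT (x axis) and OE versus EV (y axis), coloured by subunit, with filled points for the 34 members called in both arms. Most filled points lie in the upper right, where the 26 members that rose in both arms are, MRPL40 is the filled point at upper left and MRPL19 that at lower right.

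The study's own contrast set the change in OE against the change in KD. In this interaction, (OE minus EV) minus (KD minus NT), 14 members were higher and 18 lower (edgeR's quasi-likelihood test, adjusted p under 0.05), where 44.3% of all tested genes were called, 20.3% higher and 24% lower. In the large subunit 11 were higher and 11 lower, and in the small subunit 3 and 7. The medians were -0.03 over the members and -0.02 over all genes. With library size alone the counts were 8 and 29 and the medians -0.17 and -0.15, and with an offset for transcript length the counts were 11 and 23. Without NT replicate 2, 9 members were higher instead of 14. At 0.0001, 4 were higher and 3 lower, where 15.9% of all genes were called, 6.94% higher and 8.98% lower. This contrast uses the samples of both arms, so its values follow from those above.

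The 4 named members with the highest interaction were MRPL54, MRPL45, MRPL40 and MRPL52. MRPL54 rose in OE, and was at 27.8 and 28.3 CPM in NT and 25.8, 26.8 and 26.1 in KD (interaction log2 fold change 0.61, SE 0.10, adjusted p = 3.73e-05). MRPL45 fell in KD, and was at 85.1 and 83.8 in EV and 91.8, 85.6 and 87.2 in OE (interaction 0.55, SE 0.072, adjusted p = 9.67e-07). MRPL40 changed in both arms in opposite directions (interaction 0.50, SE 0.089, adjusted p = 6.38e-05). MRPL52, a mitochondria-specific protein, was at 29.2 and 29.2 CPM in EV and 40.1, 43.4 and 35.7 in OE, and at 26.9 and 33.6 in NT and 29.6, 30.1 and 28.7 in KD (interaction 0.48, adjusted p = 0.00223). Without NT replicate 2 its adjusted p was 0.0554. At the other end, MRPL42 and MRPS25 fell in OE, and their KD and NT samples overlapped. MRPL42 was at 90.8 and 95.2 CPM in NT and 101, 89.1 and 97.6 in KD (interaction -0.66, SE 0.089, adjusted p = 1.43e-06). MRPS25 was at 79.7 and 87.5 in NT and 84.7, 83.2 and 88.1 in KD (interaction -0.49, adjusted p = 5.74e-05). MRPL14 rose in both arms, by less in OE, where it was at 29.4 and 30.2 CPM in EV and 33.8, 35.8 and 35.2 in OE (interaction -0.55, adjusted p = 1.58e-04). MRPL16, the counterpart of a bacterial protein near the tRNA sites (chr11:59806140-59810778), was at 38.7 and 38.1 CPM in NT and 53.2, 54.4 and 51.9 in KD, and at 37.6 and 38.3 in EV and 37.4, 38.7 and 37.2 in OE (interaction -0.48, adjusted p = 3.86e-05).

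Both control lines were also set against each other, since their difference enters the interaction and vector, drug and line cannot be told apart in it. In EV versus NT, 12 members were higher and 13 lower (edgeR's quasi-likelihood test, adjusted p under 0.05), where 34.1% of all tested genes were called, 18.5% higher and 15.5% lower. At 0.0001, 2 were higher and 4 lower, where 8.16% of all genes were called, 5.25% higher and 2.91% lower. The medians were -0.02 over the members and -0.004 over all genes. Without NT replicate 1, 5 were higher and 10 lower, and without EV replicate 1, 6 were higher and 12 lower. MRPS18A had the highest value, 0.65 (SE 0.065, adjusted p = 3.41e-08), followed by MRPL41 with 0.47, MRPL2 with 0.41 and MRPL14 with 0.36. MRPL14 was not called without NT replicate 1 (0.22, adjusted p = 0.0924). The lowest were MRPS22 with -0.51, MRPL3 with -0.49, MRPL13, of bacterial descent, with -0.48 and MRPL47 with -0.43. MRPL3 was at 268 and 268 CPM in NT and 190.3 and 192 in EV, and 158, 156 and 173 in OE (log2 fold change of OE versus EV -0.24).

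The subunits were then compared by their summed levels. The 48 large-subunit genes summed to 2603 and 2658 CPM in NT and to 2888, 2927 and 2836 in KD, and to 2610 and 2549 in EV and 2932, 3039 and 2927 in OE. The 28 small-subunit genes summed to 1575 and 1604 CPM in NT and 1777, 1789 and 1727 in KD, and to 1609 and 1587 in EV and 1728, 1799 and 1715 in OE. In both arms and both subunits each sample of the modified line lay above both control samples. Without scaling, all members together took 0.446% ± 0.0067 of counts in OE (SD, n = 3) against 0.423% ± 0.0036 in EV (n = 2), and 0.482% ± 0.0044 in KD (n = 3) against 0.427% ± 0.0067 in NT (n = 2). The ratio of large to small sums, which does not depend on library scaling, was 1.70 ± 0.0091 in OE (SD, n = 3) and 1.61 ± 0.011 in EV (n = 2). It was 1.63 ± 0.0089 in KD (n = 3) and 1.66 ± 0.0027 in NT (n = 2). All 3 OE samples, at 1.69 to 1.71, lay above the other 7, at 1.61 to 1.66. In OE versus EV the large sum gained 386.5 CPM, led by MRPL37, MRPL49 and MRPL4 with 48.5, 47.7 and 45.5 CPM, and the small sum gained 149 CPM, of which MRPS34 gave 73.5. In the fits, the median of the large subunit minus that of the small, on the log2 scale, came to 0.14 in OE versus EV, 0.03 in KD versus NT, -0.01 in the interaction and -0.04 in EV versus NT. With the GC offset it was 0.02 for the OE arm and -0.02 for the KD arm.

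**Figure D4:**
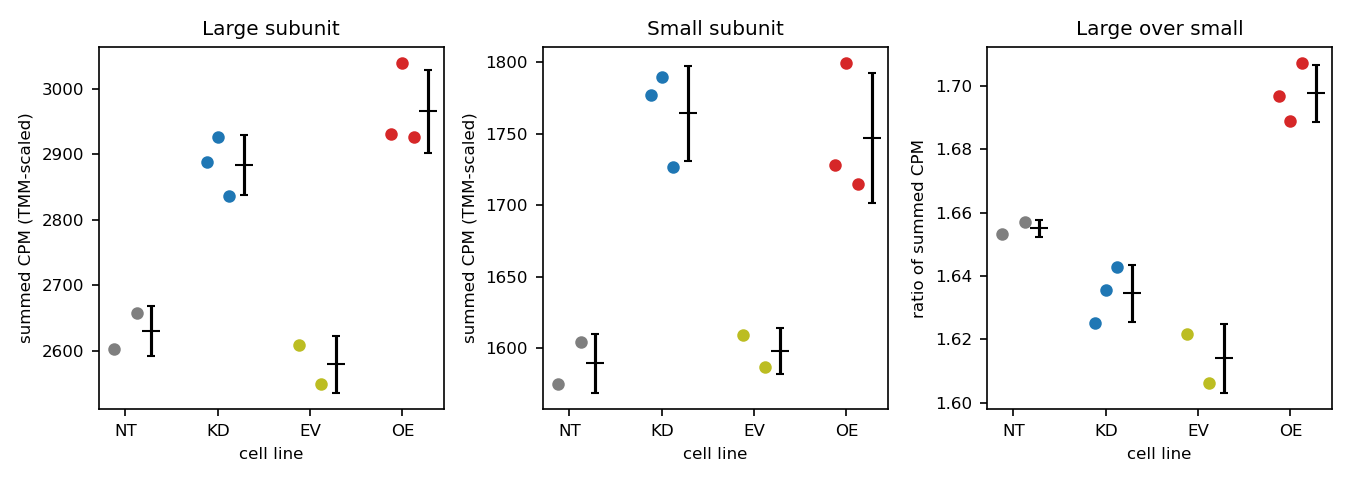
Summed CPM of the 48 large-subunit and 28 small-subunit genes and the ratio of the sums in the 4 lines, 1 point per sample with mean and SD in black; the axes do not start at 0. KD and OE lie above their controls in both sums, and the ratio is highest in OE, at 1.69 to 1.71.

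Names and places in the ribosome differ for some members. MRPS30 and MRPS18A lie in the large subunit of the mammalian structure despite their small-subunit symbols, and MRPS36 is now known as a part of the alpha-ketoglutarate dehydrogenase complex. Placed by structure there were 50 large-subunit and 25 small-subunit genes, and the ratio of sums was 1.94 in OE and 1.83 in EV, and 1.84 in both KD and NT. The paralogs MRPS18A, MRPS18B and MRPS18C, which descend from 1 bacterial protein and occupy different sites, differed in their calls. MRPS18A was at 50.3 and 49.4 CPM in EV and 70.1, 73.5 and 68.7 in OE and rose in both arms. MRPS18B was at 90.8 and 89.5 in EV and 113, 119 and 102 in OE (log2 fold change 0.30, SE 0.059, adjusted p = 1.62e-04), with a log2 fold change of 0.11 in KD that did not pass (adjusted p = 0.115). MRPS18C, which keeps the bacterial position, passed in neither arm (-0.09 and -0.17). Of its exon bases 40.2%, and of those of MRPS18A 50.9%, overlap other genes, with the largest overlap by a gene on the other strand. MRPS30 was at 0.04 in the OE arm and 0.05 in the KD arm, and MRPS36 at -0.08 and -0.02, with neither called (adjusted p = 0.539, 0.491, 0.496 and 0.832). MRPL58, a peptidyl-tRNA hydrolase that releases stalled chains and is also a ribosomal subunit, was at 47 and 43.3 CPM in EV and 63, 65 and 58 in OE (log2 fold change 0.46, SE 0.062, adjusted p = 1.55e-06). In KD it was at 49.3, 52.9 and 50.5 against 46.2 and 48.3 in NT (log2 fold change 0.11, adjusted p = 0.142).

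By descent, 44 members have a bacterial counterpart, 30 are specific to mitochondria and 2, MRPL55 and MRPS36, were not assigned. In OE versus EV 20 of the 44 rose and 7 fell (median 0.11), and 14 of the 30 rose and 7 fell (median 0.07). In KD versus NT 22 of the 44 rose and 4 fell (median 0.17), and 8 of the 30 rose and 6 fell (median 0.04). As shares, 45.5% of the 44 and 46.7% of the 30 rose in OE, beside 25.6% of all tested genes, and 50% and 26.7% rose in KD, beside 29.1%. MRPS34 and MRPL42, at the top and bottom in OE, and MRPL45, lowest in KD, are specific to mitochondria, and MRPL14, highest in KD, has a bacterial counterpart. MRPS18A and MRPS18B were counted as specific, since MRPS18C holds the bacterial site. Within the small subunit placed by structure, in KD, 7 of 15 members of bacterial descent rose and 1 fell, and 2 of 10 specific ones rose and 3 fell.

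Other genes of mitochondrial translation were followed in the same fit, in which 25.6% of all tested genes rose and 26.4% fell in OE, and 29.1% rose and 28.4% fell in KD. Of the 5 mitoribosome proteins without an MRPL or MRPS symbol, AURKAIP1 rose in both arms (0.39 in OE and 0.33 in KD) and PTCD3 fell in OE (-0.28) and rose in KD (0.20). GADD45GIP1 rose in OE (0.47), CHCHD1 rose in KD (0.36), and DAP3, which binds GTP in the small subunit, fell in KD (-0.21). Of 26 assembly factors, which modify the ribosomal RNA or help the subunits fold, 9 rose and 4 fell in OE (34.6% and 15.4%, median 0.12) and 12 rose and 4 fell in KD (46.2% and 15.4%, median 0.15). RCC1L was at 52.5 and 53.4 CPM in NT and 90.4, 99.1 and 88.4 in KD (log2 fold change 0.81, adjusted p = 1.12e-11), and at 80.7 and 79.8 in EV and 76.5, 76.8 and 73.8 in OE (-0.08, adjusted p = 0.209). YBEY, a presumed RNA endonuclease, fell in KD by 0.76 and was at 0.19 in OE (adjusted p = 0.126). Of the 15 translation factors in the table, 3 rose and 8 fell in OE (20% and 53.3%, median -0.26), and 4 rose and 6 fell in KD (26.7% and 40%, median -0.09). Among them GUF1, an elongation factor, fell by 0.52 in OE (adjusted p = 1.16e-06), and MTFMT, which formylates the initiator tRNA, rose by 0.44 in KD (adjusted p = 4.82e-05).

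Of 9 genes that transcribe or copy the mitochondrial genome, 2 rose and 5 fell in OE (22.2% and 55.6%). In KD 3 rose and 3 fell (33.3% and 33.3%). Of all tested genes 25.6% rose and 26.4% fell in OE, and 29.1% rose and 28.4% fell in KD. TFAM, which packages the genome and starts its transcription, was at 39.8 and 39.6 CPM in EV and 26.9, 26.3 and 26.4 in OE (log2 fold change -0.58, adjusted p = 5.05e-08), and -0.12 in KD versus NT did not pass (adjusted p = 0.0812). POLG, the catalytic subunit of the mitochondrial DNA polymerase, rose by 0.33 in KD. Of 9 nuclear regulators of mitochondrial genes, 3 rose and 4 fell in OE (33.3% and 44.4%) and 6 rose and 2 fell in KD (66.7% and 22.2%). The coactivators PPRC1 and PPARGC1B fell in OE (-0.36 and -0.35) and rose in KD (0.34 and 0.64). They were named by smallest interaction p, which selects for changes that differ between the arms. NRF1 went the other way (0.42 in OE and -0.45 in KD). MYC (0.42 and 0.26) and ESRRA (0.23 and 0.26) rose in both arms, and GABPA fell in both (-0.30 and -0.41). GABPB1 was called in OE only (-0.27), and YY1 (0.28) and PPARGC1A (1.67, at most 2.02 CPM) in KD only. The mitochondrial ribosomal RNAs, MT-RNR1 and MT-RNR2, added after the lists were set, rose in OE (0.62 and 0.65) and fell in KD (-0.47 and -0.50). In poly(A) libraries their capture depends on the tails of the RNA. Of the 82 cytosolic ribosomal protein genes, 1 rose and 79 fell in KD (median -0.58), and 17 rose and 31 fell in OE (median -0.06). As shares, 96.3% fell in KD and 37.8% in OE, beside 28.4% and 26.4% of all tested genes. Between the controls, in EV versus NT, 1 was higher and 71 lower (86.6%, median -0.31), beside 15.5% of all genes lower.

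Base composition moved with the changes of the members. Across the 76 members, Pearson's r between log2 fold change and the GC content of the canonical transcript was 0.74 in OE versus EV, 0.62 in KD versus NT, 0.65 in EV versus NT and 0.18 in the interaction, and across the 14136 tested genes with a GC value it was 0.33, 0.14, 0.23 and 0.12. These points are genes measured in the same libraries, and EV versus NT and the interaction share their controls with both arms. Among the 25 members of highest GC content (51.9 to 66.7%), 22 rose and none fell in OE, 18 rose and none fell in KD and 10 were higher and none lower in EV versus NT. Among the 25 of lowest GC content (34.8 to 44.5%), 2 rose and 11 fell in OE, 3 rose and 6 fell in KD, and 1 was higher and 9 lower in EV versus NT. Over all tested genes of any GC content, 25.6% were called higher and 26.4% lower in OE, and 29.1% and 28.4% in KD. In EV versus NT the shares were 18.5% and 15.5%. Calls of all genes within these GC ranges were not counted. The medians of these highest 25 were 0.40 in OE and 0.38 in KD, beside 0.19 and 0.15 for all tested genes in that range of GC content. Those of the lowest 25 were -0.12 and -0.02, beside -0.26 and -0.15. In both of these groups the median of the members lay above that of all genes by 0.13 to 0.23, and in the middle 26 by 0.12 in OE and 0.07 in KD. The large subunit had the higher median GC content, 50.6% against 46.5% in the small subunit and 49.1% over all tested genes.

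**Figure D5:**
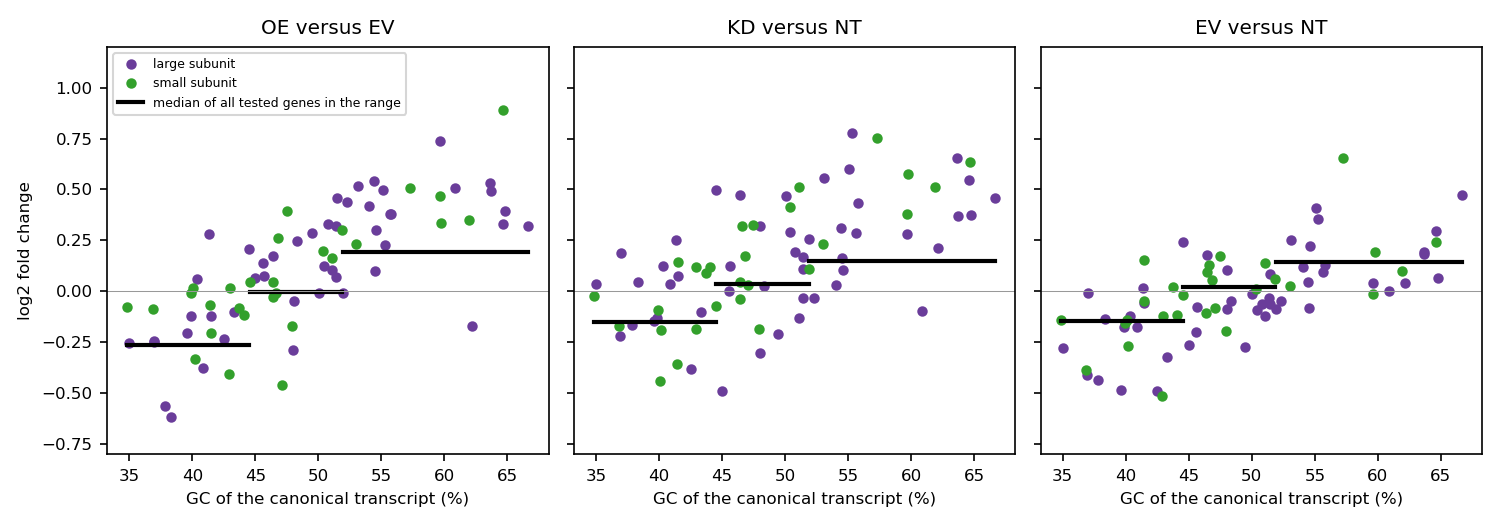
Log2 fold change of each member against the GC content of its canonical transcript (percent) in OE versus EV, KD versus NT and EV versus NT, coloured by subunit, with black lines for the median of all tested genes within the GC range of the lowest 25, the middle 26 and the highest 25 members. Points climb from left to right in all 3 panels, and so do the black lines, with most of the 25 members of highest GC content above 0 in OE and KD.

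Position in the genome moved with the members as well. For the 70 members with at least 5 other tested genes starting within 1 Mb, the member's log2 fold change and the median of its neighbours had a Pearson's r of 0.70 in OE versus EV, 0.56 in KD versus NT, 0.72 in EV versus NT and 0.30 in the interaction. Neighbours of MRPS34 and MRPL28 had medians of 0.38 and 0.39 in OE versus EV, those of MRPL54 0.36 and those of MRPL42 -0.30. For MRPL45 in KD versus NT the median of the neighbours was 0.04 beside its own -0.49. Of the other named members that fell in KD, MRPS35, MRPL3 and MRPL1 had neighbours at -0.57, -0.39 and -0.47. The neighbours of MRPS33, MRPL48, MRPL40 and MRPS21 were at 0.13, 0.14, 0.14 and 0.05. Across all 70 the median of member minus neighbours was 0.10 in OE and 0.06 in KD. It was -0.09 in EV versus NT and 0.01 in the interaction. Neighbours share GC content and chromosome segments with the members, which cannot be told apart here. Exons of 37 members overlapped no other gene, and those of 12 did so by more than 25%, among them MRPS34 (31.2%), MRPL2 (35.0%), MRPS22 (42.8%) and MRPS25 (45.9%). Since the strand setting of the counting was not given in the sources used here, reads of these genes and of their partners may be mixed. Without the 12, 30 of 64 members rose and 12 fell in OE and 26 rose and 9 fell in KD. Over all tested genes 25.6% rose and 26.4% fell in OE, and 29.1% rose and 28.4% fell in KD.

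Levels of different genes were compared as CPM per kilobase of merged exons, averaged over the groups. They ran from 0.713 to 185 with a median of 17.7, of 19.6 in the large and 12.3 in the small subunit. MRPL41, a mitochondria-specific large-subunit protein, was highest, followed by MRPS34 (98.8) and MRPL24 (92.2), a counterpart of a bacterial protein that starts large-subunit assembly. MRPL38 was lowest, followed by MRPL46 (0.874) and MRPS6 (1.84). The level of MRPL38 is uncertain because 45.1% of its exon bases overlap other genes, among them a protein-coding gene on the same strand. With the length of the canonical transcript in place of merged exons, MRPL41 and MRPL38 kept the first and last place. MRPS34 moved from rank 2 to 6, MRPL24 from 3 to 2, MRPL46 from 75 to 73 and MRPS6 from 74 to 70. The medians were then 36.5 in the large and 30.3 in the small subunit. Spearman's rho between both rankings was 0.84 over the 76 members. MRPL41 rose in both arms (0.32 in OE and 0.46 in KD), from 73.5 and 82.8 CPM in NT to 108, 113 and 100.2 in KD and from 111 and 106 in EV to 131.8, 143 and 132.8 in OE. MRPL24 rose in OE (0.30) and was at 0.10 in KD (adjusted p = 0.0756). At the low end MRPS6 rose in both arms (0.39 and 0.33), MRPL46 was at -0.01 and 0.26 and MRPL38 at -0.17 and 0.21. Neither of the latter passed in either arm, and their standard errors were 0.13 to 0.19, against 0.053 to 0.072 for the members that rose most in OE, so a change of the same size was less detectable at their depth.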

How the data were processed

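RNA-seq libraries of poly(A) mRNA from 4 kinds of LNCaP-C4-2 cells were analysed in 10 samples (NT 2, KD 3, EV 2, OE 3), grouped by the labels. The authors deposited raw counts per gene symbol, made by trimming reads with BBDuk and by alignment and quantification with STAR 2.6.0a against the Ensembl human transcriptome on hg38. The handling of strand and of overlapping genes was not given in the sources used here. Totals of 23555205 to 28615770 counts per sample set the precision, and the floor of 3 counts covers counting error only.

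Counts were filtered by filterByExpr, scaled by TMM and tested with edgeR 4.0.16 (R 4.3.3) by quasi-likelihood F-tests with 1 mean per group over all 10 samples and no block. P-values were adjusted by Benjamini-Hochberg over 17230 genes, called at an adjusted p under 0.05, with 0.0001, the study's limit, as an alternative. The fit was tested before use on simulated counts with 200 genes changed in OE. These held far fewer changed genes than were called here and no trend with GC content, so performance under such changes was not tested. CPM values are TMM-scaled. Other alternatives were DESeq2 1.42.0, limma-voom (limma 3.58.1), other scaling, filters, subunit assignments and a left-out library, and, chosen after seeing the data, offsets for GC content and length and leaving out members with over 25% exon overlap. GC content (82.0% of tested genes, all 76 members), lengths, overlaps and coordinates came from GENCODE v44 on GRCh38, the same build as hg38, and promoters from RefSeq on GRCh38.p14. GENCODE v44 is a different gene set from the Ensembl release that the authors used for counting. Its exon lengths and overlaps may differ from those behind the counts.

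The members and gene lists were chosen with earlier results of these data known, so counts over them are descriptions. Members named were the 8 highest and 8 lowest called in each arm whose groups did not overlap, the 4 highest and 4 lowest in the interaction (with at least 1 arm not overlapping) and in EV versus NT, the 3 highest and 3 lowest per length, and 7 chosen for their place or function (MRPS18A, MRPS18B, MRPS18C, MRPS30, MRPS36, MRPL12 and MRPL58), which made 39. MRPL37 and MRPL19 were named after their values were seen. From the pathway lists, the 5 other mitoribosome proteins and the 2 genes of smallest interaction p in each remaining list were named. The rest of the nuclear regulators were named after their values were seen. Same-numbered samples of different groups did not deviate together (mean correlation -0.003 over 13 pairs). A summed level of all luminal prostate markers is not reported here.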

Additional observations from a re-analysis of the deposited data

Results flagged for a closer look

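The change of 7 members differed between the over-expression and the knockdown arm by the interaction itself at an adjusted p under 0.0001 (edgeR's quasi-likelihood test with Benjamini-Hochberg adjustment). They were 9.21% of the 76, beside the 15.9% of all tested genes called at that limit. In 4 of them the change in OE was the higher. MRPL54 had an interaction log2 fold change of 0.61, from 0.51 in the OE arm and -0.10 in the KD arm. The value of MRPL45 was 0.55 (0.06 and -0.49), that of MRPL40 was 0.50 (0.29 and -0.21) and that of MRPS35 was 0.46 (0.02 and -0.44). Tested genes within 1 Mb of these 4 had median interactions of 0.07, -0.01, 0.01 and 0.33 in the same order. In the other 3 the change in KD was the higher. MRPL42 had an interaction of -0.66 (-0.62 in OE and 0.05 in KD), MRPS25 one of -0.49 (-0.46 and 0.03) and MRPL16 one of -0.48 (-0.01 and 0.47). The medians of their neighbours were -0.40, -0.10 and -0.20. With 2 or 3 samples in a group, single members were not checked for a sample far from the others, and whole libraries were compared within groups in the report.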

How the results depend on the processing

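DESeq2, limma-voom, DESeq2's size factors, both other filters, each arm alone and leaving out members on chromosomes 6 and 10 kept the counts of called members within 1.5 times those reported and moved no median by more than the spread between replicates. At 0.0001 the called members were 23 in OE versus EV, 24 in KD versus NT, 7 in the interaction and 6 in EV versus NT. With library size only, the median of the members was 0.0025 in OE versus EV, 0.16 in KD versus NT and -0.17 in the interaction, and the interaction of MRPS18C turned to -0.049. With the GC offset, the median was 0.16 in OE versus EV and 0.03 in the interaction, and the large minus small difference was 0.020 in OE versus EV, -0.016 in KD versus NT, 0.013 in the interaction and -0.051 in EV versus NT. With the length offset, the median was 0.049 in OE versus EV and -0.13 in the interaction, and the difference 0.082 in KD versus NT, 0.0041 in the interaction and -0.027 in EV versus NT. With subunits placed by structure the difference was -0.036 in the interaction and -0.011 in EV versus NT. The cause of these shifts was not tested.

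Leaving out each library in turn gave 40 to 51 called members in OE versus EV (median 0.091 to 0.15, large minus small 0.13 to 0.19), 34 to 43 in KD versus NT (0.095 to 0.15, and 0.022 to 0.062), 23 to 33 in the interaction (-0.041 to 0.017, and -0.0020 to 0.058) and 15 to 31 in EV versus NT (-0.041 to -0.0033, and -0.045 to -0.0058). The lowest of these counts, 15, came without NT replicate 1. With the replicate number as a block, the called members were 49, 46, 35 and 27 in the same order, and the large minus small difference in KD versus NT was 0.046. Same-numbered samples were not paired by the labels or by the data. The block added the call of MRPS18B in KD versus NT (0.16, adjusted p = 0.0110) and in the interaction (0.19, adjusted p = 0.0291).

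Among named members, the GC offset turned MRPL1 in KD versus NT to 0.026, MRPL50 in OE versus EV to 0.17, MRPS18C to 0.29 in OE and 0.080 in KD, and MRPS36 to 0.35 in OE, 0.29 in KD and 0.053 in the interaction. MRPS30, near 0 throughout, turned negative in OE versus EV with library size only (-0.055) and with the length offset (-0.053), and its interaction to 0.0015 with DESeq2's size factors, 0.0014 with at least 10 counts in every sample, 0.0015 with DESeq2 and 0.050 with the GC offset. MRPS36 in KD versus NT turned to 0.013 with library size only. Over the left-out libraries MRPS30 ranged from -0.0011 to 0.098 in KD versus NT and from -0.053 to 0.054 in the interaction, and MRPS36 from -0.052 to 0.0060 and from -0.11 to 0.025. Of all values of named members under these settings, 1245 kept their direction and their side of the limit, 17 lost and 12 gained a call, and 23 changed sign.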
